A study of Homo sapiens with 6 samples.

Results

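RNA polymerase II and its general transcription factors are the machinery that every protein-coding gene uses to start transcription, and their transcripts were followed here in AS-tDR-007333-overexpressed cells and in NC cells. The members were taken by name: every listed gene whose symbol begins with POLR2 or GTF2, is TBP, or consists of TAF, a number and optional letters, with hyphenated names left out. This gave 56 of the 12154 genes listed, and 55 of them were among the 11042 genes that averaged at least 1 FPKM (fragments normalised to the length of the gene and the mapped fragments of the library) and were tested. Of the 56 rows, 16 were polymerase subunits, 2 were TFIIA, 1 was TFIIB, 2 were TFIIE, 2 were TFIIF and 6 were the TFIIH core. Another 16 were TFIID, 7 carried a TAF name but were grouped outside TFIID, and 4 were of the TFII-I family. GENCODE 44 holds 59 protein-coding genes that the rule matches, and GTF2A1L, TAF1L, TAF7L and a second gene named POLR2J3 were not analysed here.

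The series holds 3 libraries of cells given AS-tDR-007333, a small RNA derived from a transfer RNA, and 3 libraries of cells given a negative control (NC). The sources do not agree on the cells. The sample labels name A549, a lung adenocarcinoma line, transfected with a tRF plasmid or an empty vector, and also call the control untreated, whereas the study's methods name PC9, another lung adenocarcinoma line, transfected with the fragment or NC for 48 h. Neither source says that the libraries of a group come from separate cultures, and p-values therefore reflect variation among these 6 libraries, part or all of which may be technical.

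Polymerase II is a 12-subunit enzyme whose largest subunits form the active centre, while several small ones are shared with polymerases I and III. It does not find promoters alone: TFIID, built from TBP and TAFs, binds promoter DNA, TFIIA and TFIIB join it, TFIIF arrives with the polymerase, and TFIIE brings in TFIIH, which opens the DNA and phosphorylates the polymerase tail. Most of these genes are expressed in all cell types. In bulk RNA, fewer cells expressing a gene and less of its RNA per cell cannot be told apart.

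The fragment and its control, as the study lists them, are shown because they are the only difference between the groups that the study's methods describe. Whether these libraries received these oligonucleotides is not settled, since the sample labels name a tRF plasmid and an empty vector.
AS-tDR-007333: gcauuggugguucagugguagaauucuu
NC: gagaauuuugauggccguucuguaugug
Both oligonucleotides are 28 nt long.

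Several members have near-identical copies, which decides how far their separate levels can be read, and the stretches below show how little separates them. Each pair is taken from the coding sequence in GRCh37 with GENCODE 44 models, 5′ to 3′ on the coding strand, and capitals mark the bases that differ within the pair. POLR2J and POLR2J2 lie on chromosome 7, GTF2H2 and GTF2H2C on chromosome 5, and GTF2IRD2 and GTF2IRD2B on chromosome 7.
POLR2J2: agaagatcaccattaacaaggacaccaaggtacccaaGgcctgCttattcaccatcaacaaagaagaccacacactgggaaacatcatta
POLR2J: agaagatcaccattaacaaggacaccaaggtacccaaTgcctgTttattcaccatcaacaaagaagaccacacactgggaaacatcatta
GTF2H2C: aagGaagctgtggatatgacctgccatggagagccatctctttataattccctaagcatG
GTF2H2: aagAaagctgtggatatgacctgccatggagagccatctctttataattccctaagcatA
GTF2IRD2B: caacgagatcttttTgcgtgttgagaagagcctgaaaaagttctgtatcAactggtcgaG
GTF2IRD2: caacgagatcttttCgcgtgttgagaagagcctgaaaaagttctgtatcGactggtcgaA
Over their aligned coding bases, POLR2J2 and POLR2J differed at 4 of 322 positions, GTF2H2C and GTF2H2 at 4 of 1185, and GTF2IRD2B and GTF2IRD2 at 8 of 2847. TAF9B and TAF9, by contrast, were 84.3% identical over 750 aligned bases.

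Summed FPKM per library differed little, from 197324 to 202921, and the number of reads is unknown because no counts were used. NC replicate 1 stood apart from the other NC libraries on the first principal component, at 18.0 against -9.91 and -9.44 for NC replicates 2 and 3. AS-tDR-007333 replicate 3 stood apart on the second, at 17.4 against -0.97 and -9.69 for AS-tDR-007333 replicates 1 and 2. These components held 24.3% and 19.6% of the variance. Of 9 lung epithelial and carcinoma markers, 7 were listed in all 6 libraries. EPCAM was at 153 to 160 FPKM in AS-tDR-007333 cells and 163 to 168 FPKM in NC cells, KRT18 at 224 to 242 and 207 to 221 FPKM, KRT8 at 155 to 187 and 148 to 174 FPKM, KRT7 at 333 to 337 and 317 to 352 FPKM, and KRT19 at 645 to 678 and 601 to 665 FPKM. CDH1 had 53.1, 69.2 and 69.7 FPKM in AS-tDR-007333 cells, against 66.7, 35.3 and 34.6 FPKM in NC cells. EPCAM and KRT18 did not overlap between groups, in opposite directions, and the part of these differences in the members' values was not tested. NAPSA was low, at 0.345 to 0.467 FPKM in AS-tDR-007333 cells and 0.436 to 0.563 FPKM in NC cells, and NKX2-1 and SFTPC were not listed. The leukocyte markers PTPRC and CD3E, the endothelial markers PECAM1 and VWF and the fibroblast marker DCN were not listed either. Listed genes reach a mean of at least 0.5 FPKM in a group, so a gene not listed may still be expressed at a low level. All AS-tDR-007333 values of NAPSA lie below that level. CD68 at 11.3 to 17.0 FPKM and COL1A1 at 5.09 to 6.10 FPKM were listed in all 6 libraries.

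No member passed an adjusted p of 0.05 in either direction in limma, with Benjamini-Hochberg adjustment over all 11042 genes. The same threshold was passed by 4 genes that were higher (0.0362% of those tested) and 3 that were lower (0.0272%), and the smallest adjusted p of any member was 0.9996. At an unadjusted p under 0.05, 1 member was higher in AS-tDR-007333 cells, POLR2L, and 0 were lower, beside 180 genes higher (1.63%) and 219 genes lower (1.98%) over all genes tested. A per-gene linear model in the manner of Ballgown, the study's own tool, also called 0 members, and 6 members had an unadjusted p under 0.05 in it, beside 879 of all genes tested (7.96%). Without NC replicate 1, limma likewise gave 6 members an unadjusted p under 0.05, beside 749 of all genes then tested (6.79%), and 0 members were called.

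For most members the libraries bounded the difference closely. The 95% interval of the fold change, on the scale of log2(FPKM + 1), lay within 1.5-fold in either direction for 51 of 55 members (92.7%), as it did for 89.4% of all genes tested. That scale understates changes of low genes, so the bound is looser in FPKM itself for low members. Of the members tested, 58.2% averaged at least 5 FPKM. Median log2 fold change was -0.02 for the members and -0.01 for all genes tested, with 20 members above 0 and 35 below, beside 4968 and 6074 of all genes tested. The members ranged from -0.32 to 0.35, whereas all genes tested ranged from -1.44 to 2.17, but a range widens with the number of genes. The median absolute log2 fold change was 0.049 for the members and 0.057 for all genes tested. Its 90th percentile was 0.156 and 0.198. MED29 and MED18, subunits of the Mediator complex that bridges activators and the polymerase, show what a called difference looked like in these libraries, at log2 fold changes of 2.17 (limma adjusted p = 4.96e-04) and 1.42 (limma adjusted p = 0.0104).

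**Figure D1:**
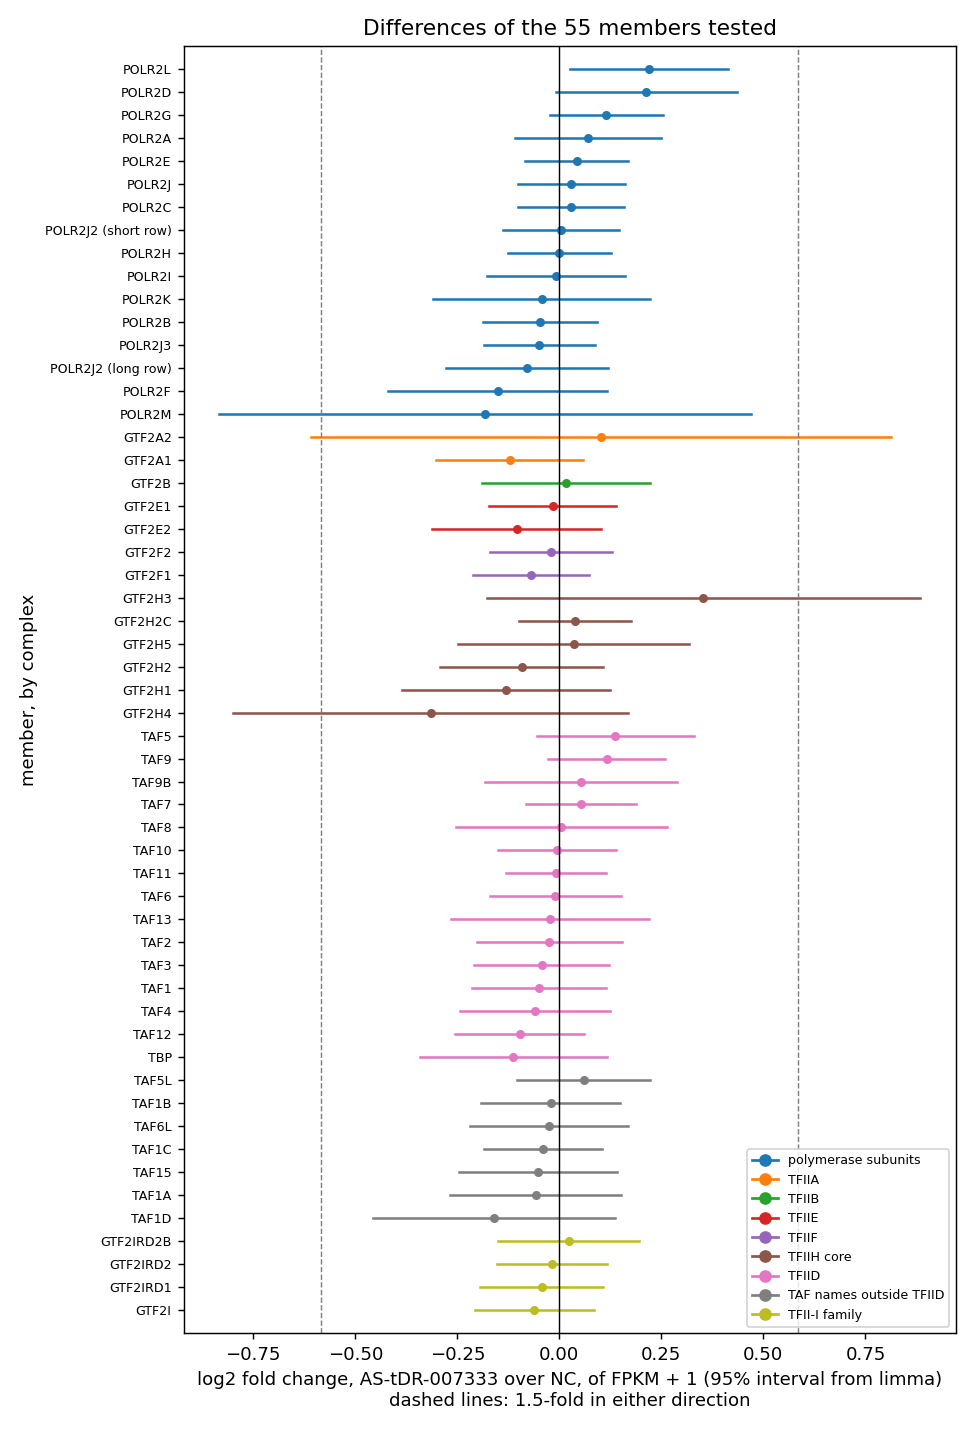
Log2 fold change of FPKM + 1, AS-tDR-007333 over NC, for the 55 members tested, with 95% intervals from limma (3 libraries per group), coloured by complex and with dashed lines at 1.5-fold. Points lie between -0.32 and 0.35, and the intervals of GTF2H3, GTF2A2, GTF2H4 and POLR2M reach past a dashed line.

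The polymerase subunits A to L, which together make the enzyme, summed to 254 ± 5.39 FPKM in AS-tDR-007333 cells and 245 ± 6.20 FPKM in NC cells (SD, n = 3 each), a difference of 3.42%. These sums overlapped, at 260, 251 and 249 FPKM in AS-tDR-007333 cells, against 238, 250 and 247 FPKM in NC cells. Within them, POLR2L alone averaged 38.9 FPKM in AS-tDR-007333 cells and 33.4 FPKM in NC cells. POLR2A, the largest subunit, whose tail of repeats is phosphorylated as transcription begins, had 31.5, 31.3 and 32.6 FPKM in AS-tDR-007333 cells, against 33.8, 29.0 and 28.4 FPKM in NC cells. The groups overlapped, since NC replicate 1 was the highest library of all. POLR2B, which builds the active centre with POLR2A, averaged 18.0 FPKM in AS-tDR-007333 cells and 18.7 FPKM in NC cells. Transcripts of POLR2C, a subunit on which the enzyme assembles, averaged 12.8 and 12.6 FPKM in AS-tDR-007333 and NC cells. POLR2I, a small zinc-binding subunit, was also level, with 12.9 FPKM in both groups.

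POLR2L (chr11:837356-842545, GRCh37, minus strand) encodes a small subunit shared by polymerases I, II and III. It had 40.1, 37.5 and 39.1 FPKM in AS-tDR-007333 cells, against 29.7, 34.0 and 36.4 FPKM in NC cells. Every AS-tDR-007333 library was above every NC library, and the lowest value was that of NC replicate 1. The log2 fold change was 0.22 (SE 0.08, 95% interval 0.03 to 0.41) and the limma adjusted p = 0.9996, so the difference did not pass the test over all genes. Over the 12 alternative analyses its log2 fold change stayed between 0.13 and 0.28, with an unadjusted p under 0.05 in 7 of them. Several of those 7 changed only the pseudocount, the filter or the scaling and kept all 6 libraries. It was not under 0.05 in the Ballgown-style model or with a term for replicate number. Nor was it without AS-tDR-007333 replicate 1, AS-tDR-007333 replicate 3 or NC replicate 2. CD151 on the opposite strand covers 2476 bp of the gene, and its own levels of 34.6, 34.5 and 21.4 FPKM in AS-tDR-007333 cells, against 33.1, 18.9 and 32.8 FPKM in NC cells, were lowest in AS-tDR-007333 replicate 3 and NC replicate 2. The library kit keeps strand, but whether counting used it was not stated.

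The other shared subunits did not repeat the separation seen for POLR2L. POLR2E averaged 15.2 ± 0.357 FPKM in AS-tDR-007333 cells and 14.8 ± 0.594 FPKM in NC cells, POLR2H 17.9 ± 0.159 and 17.9 ± 0.847 FPKM, and POLR2F 6.02 ± 0.588 and 6.82 ± 1.02 FPKM (SD, n = 3 each). POLR2K, the member with the highest mean level, had 39.5, 35.0 and 32.7 FPKM in AS-tDR-007333 cells, against 31.6, 39.7 and 39.6 FPKM in NC cells. Its groups overlapped across almost their whole range.

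POLR2D and POLR2G form the stalk that projects from the enzyme near the RNA exit. POLR2D had 4.54, 5.04 and 4.02 FPKM in AS-tDR-007333 cells, against 3.45, 4.12 and 3.72 FPKM in NC cells, with a log2 fold change of 0.21. One AS-tDR-007333 library lay below the highest NC library. POLR2G had 23.9, 22.7 and 22.4 FPKM in AS-tDR-007333 cells, against 21.4, 22.1 and 19.9 FPKM in NC cells, so its groups did not overlap, at a log2 fold change of 0.12. With POLR2L and TAF9, POLR2G was 1 of 3 members whose AS-tDR-007333 libraries were all above the NC libraries (5.45% of the members, beside 3.58% of all genes tested), while 0 members lay wholly below (5.18% of all genes tested). POLR2D was picked out after its values were seen.

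**Figure D2:**
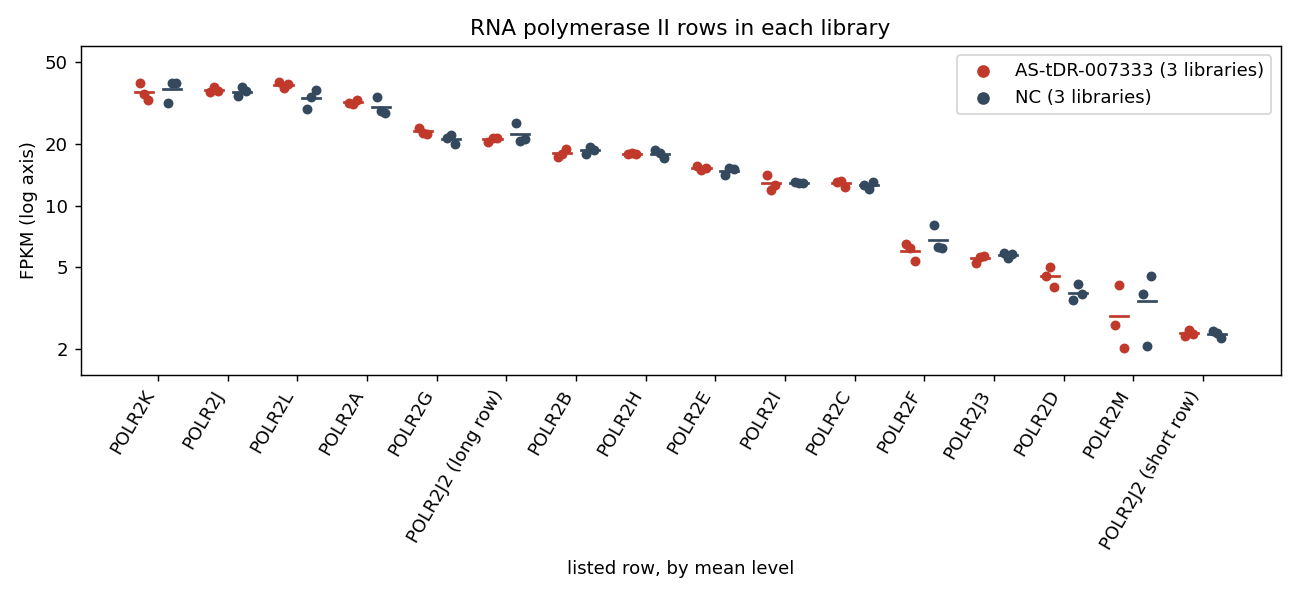
FPKM of the 16 polymerase rows in each library on a log axis, AS-tDR-007333 left of NC in each pair, with points for libraries and short lines for means of 3. POLR2L is the highest-level row whose groups do not overlap, and POLR2M has the widest scatter.

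The POLR2J family shows where annotation limits what can be said. POLR2J, which pairs with POLR2C, had 35.9, 37.8 and 36.3 FPKM in AS-tDR-007333 cells, against 34.0, 37.8 and 36.0 FPKM in NC cells. The deposited list gives the name POLR2J2 to 2 rows that overlap on the same strand. GENCODE 44 gives that name to the gene of the short row only. The long row (chr7:102277496-102312088) also spans UPK3BL1, which holds 70.5% of the 100-base stretches of its transcript. The long row had 20.4, 21.4 and 21.5 FPKM in AS-tDR-007333 cells, against 25.3, 20.7 and 21.2 FPKM in NC cells. The short row (chr7:102305815-102312076) had 2.32, 2.47 and 2.36 FPKM in AS-tDR-007333 cells, against 2.46, 2.40 and 2.25 FPKM in NC cells. POLR2J3 had 5.27, 5.64 and 5.67 FPKM in AS-tDR-007333 cells, against 5.86, 5.56 and 5.83 FPKM in NC cells. Groups overlapped in every row. For each canonical transcript, the 100-base stretches also found in transcripts of any other gene were counted. Their share was 25.3% for POLR2J, 91.8% for POLR2J3 and 100% for both rows of POLR2J2. Reads of that length could often be assigned to more than 1 gene, inside or outside this family.

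POLR2M encodes a protein that associates with the polymerase and competes with TFIIF. It varied more than any other member, with 2.60, 4.08 and 2.02 FPKM in AS-tDR-007333 cells, against 3.72, 2.07 and 4.54 FPKM in NC cells. High and low libraries occurred in both groups, and the interval of the log2 fold change ran from -0.83 to 0.47. It shares 27.5% of its 100-base stretches with GCOM1, a gene on the same strand that overlaps it.

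TFIIA steadies TBP on DNA. GTF2A2, its small subunit, had 12.0, 6.88 and 7.01 FPKM in AS-tDR-007333 cells, against 5.71, 6.73 and 11.8 FPKM in NC cells. One library of each group was well above the rest, and the log2 fold change of 0.10 had an interval from -0.61 to 0.81. GTF2A1, which is cleaved into the alpha and beta subunits, had 3.94, 3.98 and 3.70 FPKM in AS-tDR-007333 cells, against 3.87, 4.66 and 4.41 FPKM in NC cells, with overlapping groups. GTF2B, the single gene of TFIIB and the link between TBP and the polymerase, had 9.13, 8.04 and 10.0 FPKM in AS-tDR-007333 cells, against 8.86, 9.41 and 8.52 FPKM in NC cells. Both extremes lay in the AS-tDR-007333 group.

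TFIIF, the factor that escorts the polymerase to the promoter, had nearly equal amounts of its subunit transcripts. GTF2F1 had 20.4, 20.7 and 20.7 FPKM in AS-tDR-007333 cells, against 22.7, 22.2 and 20.1 FPKM in NC cells, and GTF2F2 averaged 19.9 FPKM in AS-tDR-007333 cells and 20.2 FPKM in NC cells. TFIIE was less even between its genes. GTF2E2 had 13.2, 14.5 and 16.5 FPKM in AS-tDR-007333 cells, against 16.1, 16.4 and 15.1 FPKM in NC cells, whereas GTF2E1 averaged 5.90 FPKM in AS-tDR-007333 cells and 5.98 FPKM in NC cells. All 4 genes had overlapping groups.

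The TFIIH core holds the helicases in place and is also used in nucleotide excision repair. GTF2H1, its highest-level gene, had 10.4, 10.3 and 13.2 FPKM in AS-tDR-007333 cells, against 11.4, 13.2 and 12.6 FPKM in NC cells. GTF2H3 had the largest positive log2 fold change of all members, 0.35, yet its libraries read 6.10, 6.26 and 5.89 FPKM in AS-tDR-007333 cells, against 4.83, 6.46 and 2.91 FPKM in NC cells. The highest library was an NC one, and the log2 fold change was 0.10 without NC replicate 3 and 0.57 without NC replicate 2. GTF2H4 had the largest negative one, -0.32, with 4.80, 3.29 and 2.38 FPKM in AS-tDR-007333 cells, against 5.22, 4.20 and 3.99 FPKM in NC cells. The AS-tDR-007333 libraries of GTF2H4 spread more than the NC ones, and the log2 fold change was -0.52 without AS-tDR-007333 replicate 1 and -0.13 without AS-tDR-007333 replicate 3. GTF2H4 shares 91.8% of its 100-base stretches with another GENCODE gene, ENSG00000288473. In the deposited coordinates, GTF2H4 overlaps VARS2 on the same strand for 5865 bp. VARS2 itself averaged 5.75 FPKM in AS-tDR-007333 cells and 5.79 FPKM in NC cells.

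**Figure D3:**
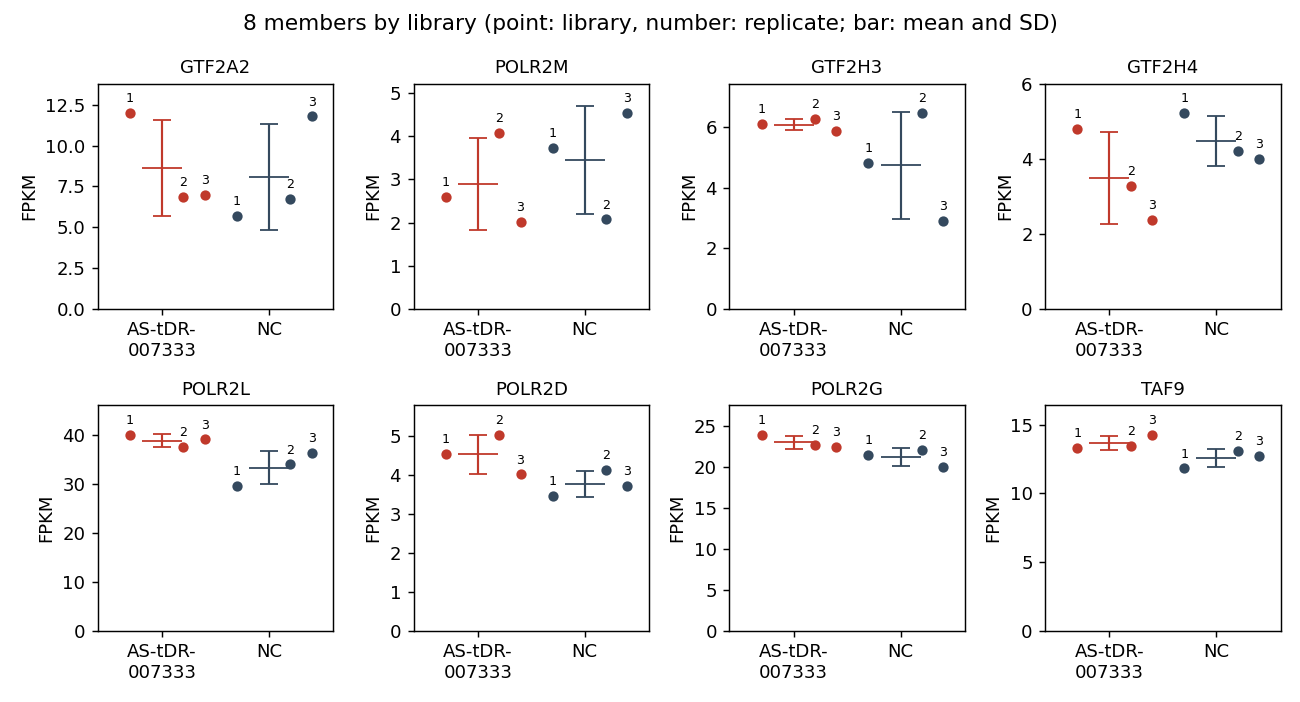
FPKM of 8 members in each library, AS-tDR-007333 left and NC right, with replicate numbers, means and SD bars (n = 3 each). The upper row shows the members with the widest range between libraries, from 2.10-fold to 2.25-fold, and the lower row shows POLR2L, POLR2D, POLR2G and TAF9, where the AS-tDR-007333 means are above the NC means.

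GTF2H5, the small subunit that stabilises the core, averaged 4.49 FPKM in AS-tDR-007333 cells and 4.40 FPKM in NC cells. GTF2H2 had 1.01, 0.993 and 1.11 FPKM in AS-tDR-007333 cells, against 1.22, 0.969 and 1.34 FPKM in NC cells. Its copy GTF2H2C had 1.59, 1.66 and 1.63 FPKM in AS-tDR-007333 cells, against 1.49, 1.57 and 1.61 FPKM in NC cells. As the printed stretches show, few bases tell these genes apart, and 86.1% of the 100-base stretches of GTF2H2 and 55.5% of those of GTF2H2C also occur in other genes. Outside the name rule, the 5 genes of the TFIIH helicases and kinase module (ERCC2, ERCC3, CDK7, CCNH and MNAT1) had log2 fold changes from -0.13 to 0.07, and 0 of 5 had an unadjusted p under 0.05.

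TFIID summed to 149 FPKM in both groups, a difference of 0.101%. Its transcripts covered the widest range of levels, and TAF13 and TAF7 stood well above the rest. TAF13, a histone-fold subunit, had 36.6, 33.5 and 33.8 FPKM in AS-tDR-007333 cells, against 30.4, 40.0 and 35.7 FPKM in NC cells. TAF7, a partner of TAF1, averaged 33.8 FPKM in AS-tDR-007333 cells and 32.6 FPKM in NC cells. TBP, which binds the TATA element, averaged 4.16 ± 0.330 FPKM in AS-tDR-007333 cells and 4.59 ± 0.576 FPKM in NC cells, and TAF1, the largest TAF, averaged 3.48 ± 0.219 and 3.63 ± 0.218 FPKM (SD, n = 3 each). Both overlapped between groups.

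TAF9, another histone-fold subunit, had 13.3, 13.4 and 14.3 FPKM in AS-tDR-007333 cells, against 11.8, 13.1 and 12.7 FPKM in NC cells, a log2 fold change of 0.12. Its groups did not overlap, but the lowest AS-tDR-007333 library and the highest NC library were close. AK6 overlaps the whole of TAF9 on the same strand and averaged 7.67 FPKM in AS-tDR-007333 cells and 7.47 FPKM in NC cells. TAF9B, the related gene on the X chromosome, averaged 3.35 FPKM in AS-tDR-007333 cells and 3.21 FPKM in NC cells. TAF5, the scaffold of the TAF lobes, had the largest absolute log2 fold change in TFIID, 0.14 on the scale of FPKM + 1. It had 1.22, 1.23 and 1.31 FPKM in AS-tDR-007333 cells, against 1.25, 0.916 and 0.991 FPKM in NC cells. In FPKM itself the AS-tDR-007333 mean was 18.9% higher. NC replicate 1 lay among the AS-tDR-007333 libraries.

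The remaining TFIID subunits had overlapping groups. TAF11, which pairs with TAF13, averaged 15.5 and 15.6 FPKM in AS-tDR-007333 and NC cells, TAF6 10.5 and 10.5 FPKM, TAF2 9.05 and 9.20 FPKM, and TAF12 8.69 and 9.38 FPKM. Lower still, TAF8 averaged 2.96 FPKM in both groups, TAF10 averaged 2.93 and 2.95 FPKM, TAF4 2.47 and 2.61 FPKM, and TAF3 2.29 and 2.39 FPKM. TAF4B, a relative of TAF4 best known from germ cells, was the 1 member below the level tested, with 0.542, 0.606 and 0.572 FPKM in AS-tDR-007333 cells, against 0.432, 0.577 and 0.526 FPKM in NC cells.

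**Figure D4:**
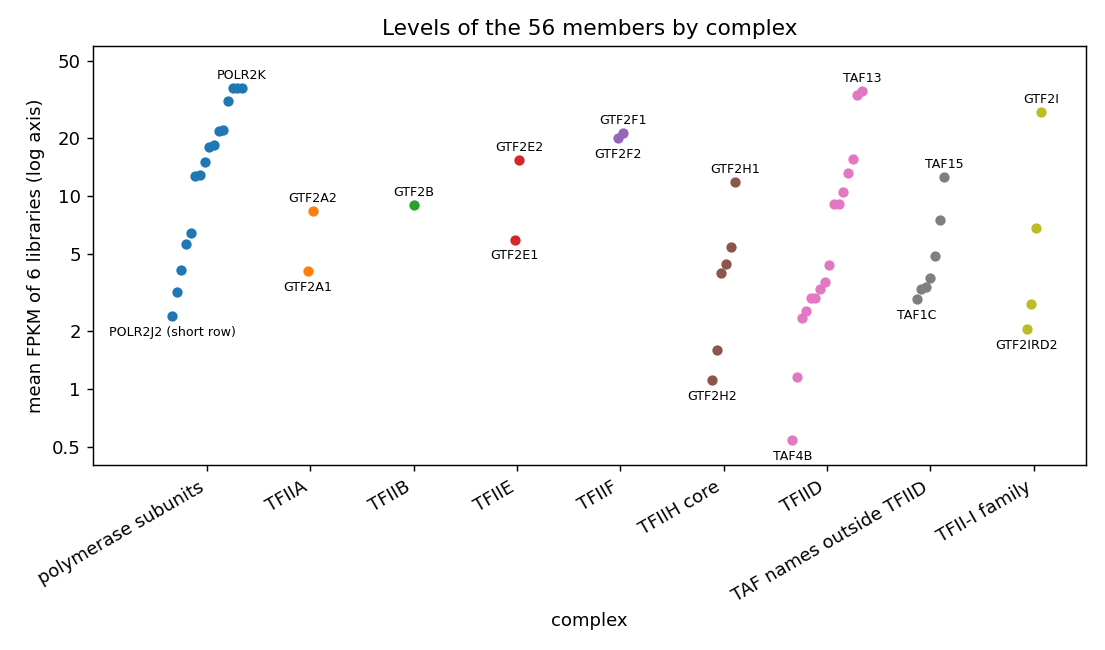
Mean FPKM of the 6 libraries on a log axis for the 56 members, grouped by complex, with the highest and lowest member of each labelled. TFIID spans the widest range, 64.5-fold, while the TFIIF genes differ by 1.05-fold.

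The TAF names grouped outside TFIID mostly belong to other machines. TAF1A, TAF1B, TAF1C and TAF1D are subunits of the selectivity factor of polymerase I, which transcribes ribosomal RNA genes. TAF1D had 7.87, 6.57 and 6.69 FPKM in AS-tDR-007333 cells, against 6.57, 8.42 and 9.09 FPKM in NC cells, and NC replicate 1 was again apart from its group. TAF5L and TAF6L sit in the SAGA coactivator and averaged 3.38 and 3.71 FPKM in AS-tDR-007333 cells, against 3.20 and 3.79 FPKM in NC cells. TAF15, an RNA-binding protein, had 12.6, 11.5 and 12.7 FPKM in AS-tDR-007333 cells, against 11.6, 12.6 and 14.1 FPKM in NC cells. All of these overlapped between groups.

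The TFII-I family lies together on chromosome 7, in the region deleted in Williams syndrome or next to it. GTF2I, its founding member and a signal-responsive factor, had 26.0, 26.7 and 27.4 FPKM in AS-tDR-007333 cells, against 27.7, 26.2 and 29.9 FPKM in NC cells. GTF2IRD1 averaged 6.67 FPKM in AS-tDR-007333 cells and 6.91 FPKM in NC cells. The copies GTF2IRD2 and GTF2IRD2B differed less between libraries than most genes. GTF2IRD2 had 2.01, 2.01 and 2.05 FPKM in AS-tDR-007333 cells, against 2.09, 1.98 and 2.11 FPKM in NC cells, and GTF2IRD2B had 2.63, 2.66 and 3.08 FPKM in AS-tDR-007333 cells, against 2.71, 2.60 and 2.87 FPKM in NC cells. Other genes hold 94.3% of the 100-base stretches of GTF2IRD2, 85.9% of those of GTF2IRD2B and 63.8% of those of GTF2I, so the levels of the 3 genes cannot be told apart from those of their copies with certainty.

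Of 7 lists of other transcription genes, some of them for polymerases I and III and none for Mediator, 0 held a called gene. Among 18 tested subunits of polymerases I and III, 1 had an unadjusted p under 0.05, POLR3GL, a polymerase III subunit, at 6.64, 6.71 and 5.99 FPKM in AS-tDR-007333 cells, against 8.62, 7.24 and 7.49 FPKM in NC cells (log2 fold change -0.24, limma adjusted p = 0.9996). Among 27 pausing and elongation factors, 1 did so, LARP7, which holds the 7SK RNA that restrains the elongation kinase, at 7.94, 9.22 and 8.67 FPKM in AS-tDR-007333 cells, against 9.74, 10.1 and 9.91 FPKM in NC cells (log2 fold change -0.19, limma adjusted p = 0.9996). Both genes had every AS-tDR-007333 library below every NC library, and over all genes tested 1.98% were lower at that threshold and 5.18% lay wholly below. The 4 TBP relatives and regulators, 9 polymerase III factors, 11 polymerase assembly factors and tail phosphatases and 13 SAGA subunits had 0 genes at that threshold.

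The members' promoters were compared for the TATA element, searched as TATAAA on both strands of RefSeq sequence (GRCh38.p14) from 250 bases before to 50 bases after each start. Of 54 promoters found for 43 members, 3 held it (5.56%), those of GTF2B, POLR2M and TAF4B. It occurred in 6.14% of the promoters of all listed genes and in 11.5% of all promoters. A match describes the letters only.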

How the data were processed

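RNA-seq of 6 libraries, 3 per group, was analysed. Per the labels and the study's methods, RNA was extracted with TRIzol, made into libraries with a stranded KAPA kit, and sequenced on an Illumina instrument. The submitters' processing notes name HISAT2 2.0.5, featureCounts 1.5.0-p3 and GRCh37, and the study's methods credit FPKM to Ballgown. The annotation release, read length and strand setting are not given in the sources used here. The FPKM values deposited by the authors are normalised to gene length and mapped fragments, so no count model was used and depth is unknown.

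Testing covered the genes whose mean reached 1 FPKM, and used limma 3.58.1 (R 4.3.3; lmFit, eBayes with trend) on log2(FPKM + 1), which understates changes of low genes, with Benjamini-Hochberg adjustment over all genes tested. The procedure was tested on simulated data. The alternatives tried were a smaller pseudocount (0.1), dropping the filter, raising it to 5 FPKM, median-of-ratios rescaling, a Ballgown-style model, a replicate block, and leaving out each library. Same-numbered libraries were checked for pairing: the correlations of their deviations were -0.01, 0.01 and -0.01. No shared effect of the number was seen, which cannot tell whether same-numbered libraries were prepared together. No gene had the same value above 0 FPKM in 2 libraries.

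Any listed member could be named with its group means. Values of all 6 libraries were given for members with an unadjusted p under 0.05, the highest-level member and the largest absolute log2 fold change of each complex, near-identical copies, and members below the filter. Other members with library values were picked after their values were seen. Members and lists were chosen with earlier results of these data known. Shared 100-base stretches were counted between each member's canonical transcript in GENCODE 44 and all transcripts of other genes.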

Additional observations from a re-analysis of the deposited data

How the results depend on the processing

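Across the 12 alternatives 0 members were called, and the members' median log2 fold change stayed between -0.03 and -0.01. Against 1 member at an unadjusted p under 0.05 (POLR2L), there were 6 in the Ballgown-style model (POLR2K, TAF12, TAF1D, TAF5, GTF2A1 and POLR2A, beside 7.96% of all genes) and 2 with the replicate block (GTF2H4 and POLR2D, beside 3.03%), and POLR2L was in neither. Leaving out a library gave 1 to 6: 6 without NC replicate 1 (POLR2A, TAF5, TAF12, TAF1D, GTF2A1 and POLR2L, beside 6.79%), 3 without AS-tDR-007333 replicate 3 (POLR2D, GTF2H1 and GTF2E2, beside 3.21%) and 2 without NC replicate 2 (GTF2H3 and POLR2D, beside 3.58%). Over all genes, 0 were called in the Ballgown-style model and 1 with the replicate block, against 7, and 1 (without NC replicate 3) to 18 (without NC replicate 1) when a library was left out, with 11 without AS-tDR-007333 replicate 2 and 14 without NC replicate 2. The causes were not tested. No other call changed with the block. The sign of the log2 fold change, which passed no test, changed in at least 1 alternative for 25 of 55 members. With median-of-ratios rescaling it was 0.0039 for TAF11, POLR2I and TAF10, 0.0013 for TAF6 and 0.0115 for POLR2H. In the Ballgown-style model it was -0.0036 for POLR2J, 0.0070 for GTF2IRD1, -0.24 for GTF2A2, 0.0321 for POLR2H, 0.0264 for TAF10, 0.0269 for the long row of POLR2J2 and -0.12 for GTF2H5. Leaving out a library gave GTF2A2 -0.14 to 0.38, GTF2B -0.0520 to 0.0910, GTF2E1 -0.0568 to 0.0231, GTF2F2 -0.0568 to 0.0206, GTF2H5 -0.10 to 0.11, GTF2IRD2B -0.0318 to 0.0525, POLR2H -0.0340 to 0.0305, POLR2I -0.0723 to 0.0441, POLR2J -0.0075 to 0.0650, the long row of POLR2J2 -0.13 to 0.0076, its short row -0.0218 to 0.0226, POLR2K -0.15 to 0.0165, TAF10 -0.0239 to 0.0272, TAF11 -0.0292 to 0.0133, TAF13 -0.12 to 0.0675, TAF15 -0.11 to 0.0161, TAF1A -0.13 to 0.0047, TAF1B -0.0729 to 0.0235, TAF2 -0.0706 to 0.0379, TAF3 -0.0714 to 0.0003, TAF6 -0.0512 to 0.0491, TAF6L -0.0679 to 0.0387, TAF8 -0.10 to 0.10 and TAF9B -0.0203 to 0.15. Depth is unknown, so its limits could not be given. A member without a called difference is bounded only by its interval, which is widest for GTF2A2, POLR2M, GTF2H3 and GTF2H4.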
